A study of Mus musculus with 9 samples.

Results

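The Notch receptors Notch1, Notch2, Notch3 and Notch4 and the Notch target genes Hes1, Hey1, Dtx1 and Nrarp were followed across RNA-seq of mouse LSKs, the bone marrow cells that lack lineage markers and carry Sca1 and Kit. The genes were chosen by name and are 8 of the 24060 named rows of the count table. LSKs came from 3 groups on the C57BL/6 strain, labelled with an age of 4 months, with 3 control, 2 NHD13 and 4 NHD13/MSI2 libraries. Control cells carried no induced transgene. NHD13 cells carried the fusion NUP98-HOXD13, driven by the Vav promoter in blood cells as a model of myelodysplastic syndrome (MDS), and NHD13/MSI2 cells carried that fusion together with the RNA-binding protein MSI2, switched on by doxycycline from the Col1a1 locus through rtTA at Rosa26. By the study's methods, bone marrow of each group was transplanted into irradiated congenic mice together with helper marrow. The study took LSKs 4 months after transplantation and after 3 months of doxycycline, before disease was seen. Whether the labelled age of 4 months is the time after transplantation is not stated. The labels do not say whether the libraries of a group came from separate mice, so p-values measure the spread between libraries, which may be technical in part. The controls differed in sex, as shown further on, and so did not all come from the same mouse. The comparisons asked how the expression programme of LSKs differed when MSI2 was added to NHD13, and how both differed from control.

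Notch receptors are cut by ADAM proteases and then by γ-secretase once a Delta or Jagged ligand on a neighbouring cell binds them. The freed intracellular domain joins RBPJ and a Mastermind protein in the nucleus and switches on targets that include the Hes and Hey repressors, the ubiquitin ligase Dtx1 and the feedback inhibitor Nrarp. In blood formation the pathway is best known for committing progenitors to the T lineage through NOTCH1 and for forming marginal zone B cells through NOTCH2. Musashi proteins were first tied to the pathway through the mRNA of Numb, an inhibitor of Notch that they repress.

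Several facts of the libraries bear on the values. The libraries held 19242153 to 23013493 counts. Names in the lower part of the table were moved down by 2 rows before use, which sets the counts of the 4 receptors, Nrarp and all other names later in the table. With names as deposited, the row called Notch3 held the counts given here to Notch1, and the row called Notch4 those given here to Notch2. The gene Msi2 stood at 223 to 316 CPM (counts scaled to a common library size by the TMM method) in control, 111 to 139 in NHD13, 77.1 to 88.0 in replicates 1 to 3 under the NHD13/MSI2 label and 241 in replicate 4. That row is the mouse gene, and the sources used here do not say whether the transgene carries the mouse or the human sequence, so the row may not hold its reads and cannot check the label. Hoxd13 was at 0 in the controls and at 0.648 to 1.13 CPM in all libraries with NHD13. Control replicates 1 and 3 held 888 and 866 CPM of the female-specific RNA Xist and the other libraries at most 2.33 CPM. The Y-linked gene Eif2s3y was at 0.12 and 0.04 CPM in the same controls. It was at 138 CPM in control replicate 2 and at 122 to 180 CPM in all libraries with NHD13. Sex thus differed among the controls, and all libraries with NHD13 were male by these genes. Every comparison over control therefore holds a partial difference in sex, and the part of sex in the values was not tested. MPP and HSC appear in the library names of control replicates 2 and 3, while their labelled cell type is LSK. Replicate 4 labelled NHD13/MSI2 stood apart from replicates 1 to 3, as shown further on.

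The 8 genes are protein-coding and lie on 5 chromosomes of GRCm38 (GENCODE M21), a later build than the mm9 that the submitters' processing notes name, so that positions describe the genes only. Notch1 lies on the minus strand of chromosome 2 from 26457903 to 26516663, Notch2 on chromosome 3, plus strand, from 98013527 to 98150361, Notch3 on the minus strand of chromosome 17 from 32120820 to 32166852, and Notch4 on chromosome 17, plus strand, from 34564268 to 34588503. Of the targets, Nrarp lies on chromosome 2, plus strand, from 25180758 to 25183339, Hes1 on chromosome 16, plus strand, from 30064384 to 30067796, Hey1 on the minus strand of chromosome 3 from 8663359 to 8667256, and Dtx1 on the minus strand of chromosome 5 from 120680202 to 120711927. Exons of Notch1 overlap those of 2 other annotated genes, 0610009E02Rik and Gm13568, and exons of Notch2, Notch3 and Nrarp overlap 1 each (Gm42820, Gm17276 and Gm38287). The strand used for counting is not given in the sources used here, so reads of such partners cannot be told apart.

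Promoters of 6 of the 8 genes were matched in RefSeq on GRCm38.p6, and the 250 bases before the RefSeq start are shown for the 2 receptors whose levels differed most from control and for the target with the most counts. Capitals mark the letters CACGTG, an E-box, the kind of motif bound by basic helix-loop-helix proteins.
Notch1, minus strand, chr2:26503823-26504072: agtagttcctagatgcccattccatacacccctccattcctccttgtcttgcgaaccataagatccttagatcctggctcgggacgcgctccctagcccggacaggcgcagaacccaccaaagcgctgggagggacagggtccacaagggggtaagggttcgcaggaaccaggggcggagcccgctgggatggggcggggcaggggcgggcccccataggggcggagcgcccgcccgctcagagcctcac
Notch3, minus strand, chr17:32166891-32167140: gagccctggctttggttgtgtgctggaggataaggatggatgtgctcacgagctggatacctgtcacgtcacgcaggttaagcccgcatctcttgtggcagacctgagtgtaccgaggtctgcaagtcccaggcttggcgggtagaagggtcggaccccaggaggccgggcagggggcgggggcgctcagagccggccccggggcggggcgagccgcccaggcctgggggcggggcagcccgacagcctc
Nrarp, plus strand, chr2:25180508-25180757: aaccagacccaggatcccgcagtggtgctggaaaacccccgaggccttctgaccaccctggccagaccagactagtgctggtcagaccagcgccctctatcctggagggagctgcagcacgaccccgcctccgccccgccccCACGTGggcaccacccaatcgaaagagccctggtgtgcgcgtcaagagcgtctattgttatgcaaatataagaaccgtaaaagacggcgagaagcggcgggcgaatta
The letters GTGGGAA, a motif bound by RBPJ, were found on either strand in 0 of the 6 promoters, against 5.42% of 32851 promoters of the same length, and their shorter core TGGGAA, which they contain, in 0 of 6 against 21.6%. The E-box stood in 1 of the 6, in Nrarp 108 bases before the start, against 6.02% of all promoters. GC content was 66.0% in Notch1, 68.8% in Notch3 and 61.2% in Nrarp, with 16, 17 and 18 CpG dinucleotides, against a median of 52.4% and 6 over all promoters. A match describes letters in this window, and no match says nothing about binding elsewhere.

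Levels of different genes were compared per kb of annotated exon, all isoforms merged. Notch2 was the most abundant receptor per length, at 21.2 ± 0.908 CPM per kb in control (SD, n = 3) and 20.9 ± 1.21 in NHD13 (SD, n = 2). Notch1 followed at 4.95 ± 0.745 in control and 9.98 ± 4.04 in NHD13. In libraries with the NHD13/MSI2 label, Notch2 stood at 37.3 ± 38.5 and Notch1 at 12.8 ± 5.14 CPM per kb (SD, n = 4), with replicate 4 the highest for both. Within each of the 9 libraries Notch2 was above Notch1, at 18.4, 18.6, 17.3 and 95.1 CPM per kb in replicates 1 to 4 of that group against 11.1, 8.99, 10.8 and 20.4 for Notch1. Nrarp (0.361 ± 0.196 in control) and Notch3 (0.133 ± 0.0715 in control) were far below both, and Notch4 was at 0.0553 ± 0.0134. The control ranges of the low receptors Notch4 and Notch3 did not overlap, at 0.0457 to 0.0706 against 0.0742 to 0.212 CPM per kb. Hes1 stood at 0.0645 ± 0.0560 CPM per kb in control, within the spread of Notch4, and Hey1 and Dtx1 were at 0 there. LSKs of all groups thus held the RNA of Notch1 and Notch2 in quantity, and at most 28 counts of any of the 4 target genes in a library.

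Of the 8 genes, Notch1, Notch2, Notch3, Notch4 and Nrarp passed the filter on low counts and were tested, while Hes1, Hey1 and Dtx1 did not pass. Tests were edgeR's quasi-likelihood test over 13355 genes with Benjamini-Hochberg adjustment, and a gene was called at an adjusted p under 0.01. The 3 comparisons share libraries with each other, so they are not independent.

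Notch1, the receptor of T-lineage commitment, was higher in every library with NHD13 than in every control library. Its level was 59.7, 70.5 and 80.9 CPM in control replicates 1 to 3, 101 and 183 CPM in NHD13 replicates 1 and 2, and 158, 128, 153 and 290 CPM in replicates 1 to 4 labelled NHD13/MSI2. The control range did not overlap either other group, while NHD13 and the libraries under the NHD13/MSI2 label overlapped. Group means were 70.4 ± 10.6 (SD, n = 3), 142 ± 57.5 (SD, n = 2) and 182 ± 73.2 CPM (SD, n = 4). Over control, the log2 fold change of Notch1 was 1.37 in the libraries under the NHD13/MSI2 label (standard error 0.32, edgeR adjusted p = 0.0138), which missed the threshold. Without replicate 4 of that group it was 1.06 (edgeR adjusted p = 0.00751) and was called, and over the 14 alternatives that refitted these counts the adjusted p ran from 0.000346 to 0.0636. NHD13 over control gave 1.01 (standard error 0.36, edgeR adjusted p = 0.224, from 0.0464 to 0.879 over the alternatives). Between the libraries under the NHD13/MSI2 label and NHD13 the difference was 0.36, with a 95% interval from −0.43 to 1.15 (edgeR adjusted p = 0.621). In bulk samples, fewer cells that carry a transcript and less of it in each cell cannot be told apart.

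Notch2, the receptor of marginal zone B cells, was at 186 to 239 CPM in 8 of the 9 libraries and at 1025 CPM in the other. It was at 226, 239 and 220 CPM in control replicates 1 to 3, 234 and 216 CPM in NHD13 replicates 1 and 2, and 198, 200, 186 and 1025 CPM in replicates 1 to 4 labelled NHD13/MSI2. Replicates 1 to 3 of the last group were below every other library and replicate 4 was above every one, so that its mean of 402 ± 415 CPM (SD, n = 4) describes no library. The fitted log2 fold changes were 0.82 over control (standard error 0.59, edgeR adjusted p = 0.381) and 0.84 over NHD13 (standard error 0.68, edgeR adjusted p = 0.54). Without replicate 4 both turned to the other side of 0, to −0.22 over control (edgeR adjusted p = 0.0638) and −0.19 over NHD13 (edgeR adjusted p = 0.185), and neither was called. NHD13 over control was −0.019, with a 95% interval from −1.58 to 1.54 that replicate 4 widens through the shared estimate of the spread.

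Notch3, a receptor of developing T cells and of vascular smooth muscle, was nearly absent from the libraries under the NHD13/MSI2 label. It had 42, 19 and 15 counts in control replicates 1 to 3, 45 and 17 counts in NHD13, and 1, 2, 4 and 0 counts in replicates 1 to 4 labelled NHD13/MSI2. In CPM these were 1.72, 0.90 and 0.60, then 2.07 and 0.84, then 0.05, 0.10, 0.18 and 0, so the last group lay below all other libraries. The fitted log2 fold change was −3.97 over NHD13 (standard error 0.92, edgeR adjusted p = 0.0286, from 0.00249 to 0.207 over 14 alternatives) and −3.53 over control (standard error 0.87, edgeR adjusted p = 0.0182, from 0.00163 to 0.0762). Neither passed the threshold of 0.01, and with counts this low the size of the fold is loosely set, its 95% interval running from −6.04 to −1.90 over NHD13. NHD13 and control overlapped (log2 fold change 0.44, standard error 0.90, edgeR adjusted p = 0.94).

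Notch4, known as a receptor of endothelium, was counted 6 to 13 times in each library. It had 9, 12 and 10 counts in control, 11 and 12 in NHD13, and 6, 6, 7 and 13 in replicates 1 to 4 labelled NHD13/MSI2. All 3 groups overlapped. The log2 fold change was −0.32 over NHD13 (95% interval −1.94 to 1.29, edgeR adjusted p = 0.851) and −0.024 over control (−1.46 to 1.42, edgeR adjusted p = 0.987), so a difference of several-fold would not have been detectable at this depth.

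**Figure D1:**
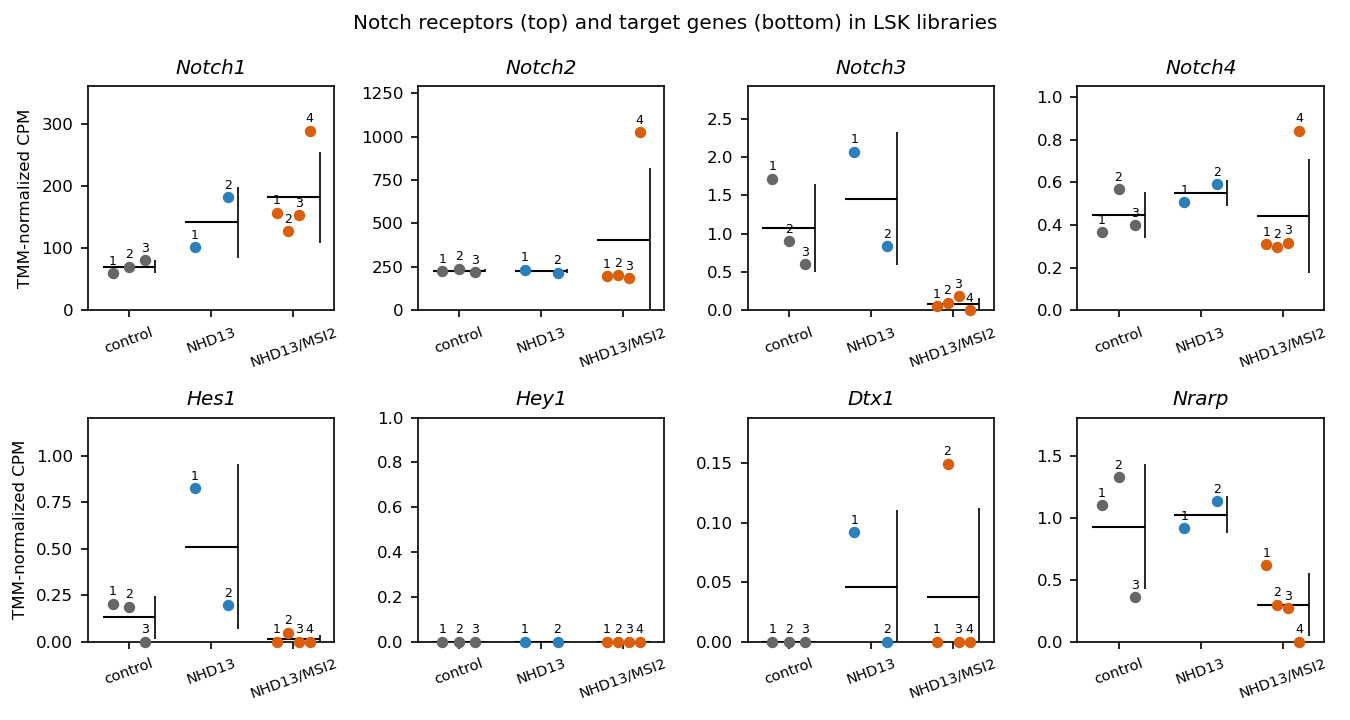
Level of each Notch receptor (top row) and target gene (bottom row) in the 9 LSK libraries, in TMM-normalized CPM on linear axes that differ between panels. Points are libraries with their replicate number, horizontal lines are group means and vertical lines are 1 SD to each side, ended at 0. Notch2 is at 186 to 239 CPM in all libraries except replicate 4 labelled NHD13/MSI2 at 1025 CPM, and Notch3 is at most at 0.18 CPM in all 4 libraries of that group.

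Among the targets, Nrarp, the ankyrin-repeat protein that limits Notch signalling in a feedback loop, was the only one with more than 18 counts in any library. It had 27, 28 and 9 counts in control replicates 1 to 3, 20 and 23 counts in NHD13, and 12, 6, 6 and 0 counts in replicates 1 to 4 labelled NHD13/MSI2. Its level was 1.10, 1.33 and 0.36 CPM in control, 0.92 and 1.14 CPM in NHD13, and 0.62, 0.30, 0.27 and 0 CPM in the last group. The libraries under the NHD13/MSI2 label were below both NHD13 libraries and overlapped control through control replicate 3. The log2 fold change was −1.75 over NHD13 (standard error 0.99, 95% interval −3.98 to 0.49, edgeR adjusted p = 0.356) and −1.60 over control (standard error 0.91, 95% interval −3.65 to 0.44, edgeR adjusted p = 0.259), and neither was called.

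Hes1, the repressor through which much of the Notch response runs, had 5, 4 and 0 counts in control, 18 and 4 in NHD13, and 0, 1, 0 and 0 in replicates 1 to 4 labelled NHD13/MSI2. It was above 5 counts in NHD13 replicate 1 only. That mean of 0.513 ± 0.446 CPM in NHD13 (SD, n = 2) was at least 3.23-fold higher than the floor of 3 counts per library in the libraries under the NHD13/MSI2 label, and the fold rests on NHD13 replicate 1. Dtx1 had 2 counts in NHD13 replicate 1, 3 counts in replicate 2 labelled NHD13/MSI2 and 0 in the other libraries. Hey1 had 0 counts in all 9 libraries, which allows up to 3 counts in each. These 3 genes were not tested, and a difference between the groups in Hey1 or Dtx1 was not detectable at this depth.

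The 5 tested Notch genes were read against all genes. In libraries with the NHD13/MSI2 label over NHD13, 0 of 5 were called by edgeR, where 3.17% of the 13355 genes were called, 0.584% higher and 2.58% lower. At an unadjusted p under 0.05 there was 1, Notch3, where 21.7% of all genes were, and DESeq2 called the same 1, where it called 9.68% of its genes. Over control, 0 of 5 were called in the libraries under the NHD13/MSI2 label, where 11.0% of all genes were called, 4.49% higher and 6.55% lower. At an unadjusted p under 0.05 there were 2, Notch1 on the higher and Notch3 on the lower side, where 32.8% of all genes were, and DESeq2 called both, against 19.5% of all genes. In NHD13 over control, 0 of 5 were called, where 1.03% of all genes were called, 0.824% higher and 0.210% lower. Notch1 alone was under an unadjusted p of 0.05 there, where 13.5% of all genes were, and DESeq2 called 0 of 5, against 4.47% of all genes. The 4 receptors stood at a median of 0.40 on the log2 scale in libraries with the NHD13/MSI2 label over control, made of Notch1 and Notch2 above 0 and Notch3 and Notch4 below, against −0.011 over all genes.

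**Figure D2:**
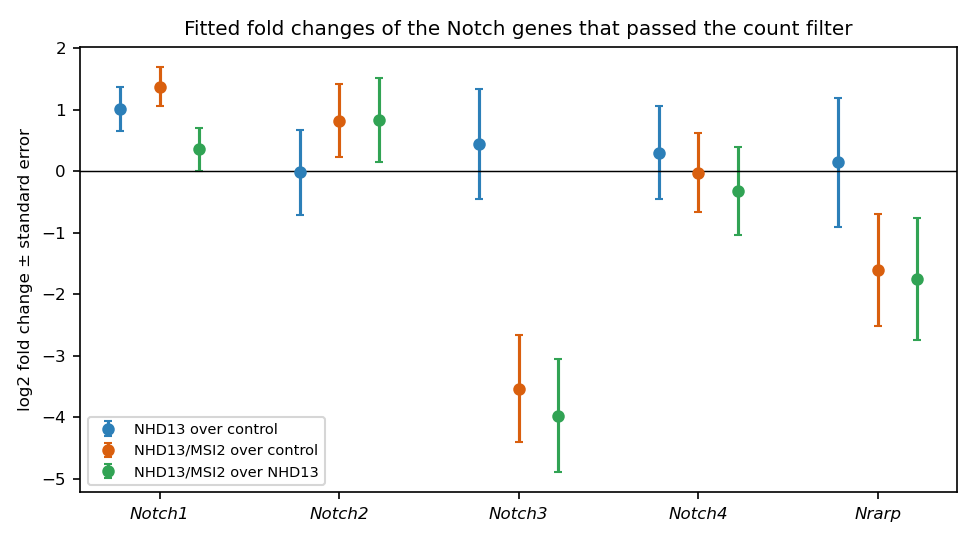
Fitted log2 fold changes of the 5 tested Notch genes (points) with their standard errors (bars) in the 3 comparisons, shown by colour. Notch1 is at 1.37 and Notch3 at −3.53 in libraries with the NHD13/MSI2 label over control, and no point passed the adjusted p of 0.01.

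The rest of the pathway was read from a list of 61 genes in 7 roles, of which 53 were tested. In libraries with the NHD13/MSI2 label over NHD13, 0 were called higher and 3 lower (Dlk1, Nedd4 and Neurl1a), and the median log2 fold change of the 53 was −0.0065 against −0.028 over all genes. Over control, 2 were called higher (Ncstn and Dtx3l) and 3 lower (Aph1c, Nedd4 and Gata3), with a median of 0.0090 against −0.011. In NHD13 over control, 1 was called higher (Dlk1) and 0 lower, with a median of 0.15 against 0.017. The 3, 5 and 1 genes called of 53 stand beside 3.17%, 11.0% and 1.03% of all genes called by edgeR in the same comparisons. DESeq2 called 8, 11 and 5 of these genes, beside 9.68%, 19.5% and 4.47% of all genes.

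Of 7 ligand genes, 5 were tested, and Dlk1, an imprinted ligand-like protein without the usual receptor-binding part, was the only one called. It stood at 0.16, 0.19 and 0.08 CPM in control, 8.32 and 29.3 CPM in NHD13 and 0.05, 0, 0.09 and 0.06 CPM in replicates 1 to 4 labelled NHD13/MSI2. Both NHD13 libraries lay above all others. The mean of Dlk1 was at least 118-fold lower under the NHD13/MSI2 label than in NHD13, set against a floor of 3 counts per library (edgeR adjusted p = 0.000698, from 3.86e-15 to 0.00894 over 14 alternatives). This fold is one of means and does not hold for each NHD13 library, as replicate 1 lay below that mean. NHD13 over control gave a log2 fold change of 6.98 (standard error 0.76, edgeR adjusted p = 0.00166). When libraries were left out in turn, this call was lost without any 1 of the control libraries or without NHD13 replicate 2. The log2 fold change ran from 5.79 to 7.62 over these fits. With a replicate block in the fit the call was lost as well (edgeR adjusted p = 0.0132).

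The classical ligands were not called, and their values are given because the receptors depend on them. Jag2, the ligand gene with the highest mean CPM over the 9 libraries though below Dlk1 in NHD13, was at 2.36 ± 1.34 CPM in control (SD, n = 3), 6.02 ± 0.134 in NHD13 (SD, n = 2) and 7.05 ± 2.15 in the libraries under the NHD13/MSI2 label (SD, n = 4), with a log2 fold change of 1.57 over control in the last (standard error 0.45, edgeR adjusted p = 0.0346). Dll4 and Jag1 are named after their values were seen. Dll4 had 12, 7 and 9 counts in control, 16 and 36 in NHD13 and 0 in all 4 libraries with the NHD13/MSI2 label. Its mean was at least 7.92-fold lower there than in NHD13 against the same floor (edgeR adjusted p = 0.0119). Jag1 had 39, 15 and 42 counts in control, 32 and 11 in NHD13 and 0, 4, 0 and 1 in replicates 1 to 4 labelled NHD13/MSI2, with a fitted log2 fold change of −4.22 over control (edgeR adjusted p = 0.0189). Dll4 and Jag1 were thus low in the same 4 libraries in which Notch3 was low, and none of the 3 passed the threshold. DESeq2 called Dll4 in both comparisons of that group, and Jag1 and Jag2 over control.

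Of 5 genes that add sugars to the receptor, 0 were called in any comparison. At an unadjusted p under 0.05 there were 2 lower in libraries with the NHD13/MSI2 label over NHD13, 1 lower over control and 1 higher in NHD13 over control, beside 21.7%, 32.8% and 13.5% of all genes, and DESeq2 called 0. Poglut1, which adds O-glucose and had the highest mean CPM of them over the 9 libraries, was at 93.4 ± 4.91 CPM in control, 132 ± 4.06 in NHD13 and 99.1 ± 12.8 in the libraries under the NHD13/MSI2 label (SD, n = 3, 2 and 4). Its log2 fold change of NHD13 over control was 0.50 (standard error 0.16, edgeR adjusted p = 0.166). Mfng, a Fringe enzyme named after its values were seen, was at 94.2 ± 33.4, 65.5 ± 7.94 and 107 ± 41.5 CPM in the same order (SD, n = 3, 2 and 4). By CPM, not set per kb, it was below Poglut1 in control replicates 2 and 3 and in both NHD13 libraries. It was also below Poglut1 in replicates 1 and 2 labelled NHD13/MSI2, and above it in the other libraries. Per kb the order differed. Mfng was at 23.7 to 46.3 CPM per kb in control against 18.8 to 20.8 for Poglut1, and at 26.3 to 58.7 against 19.3 to 25.4 under the NHD13/MSI2 label. In NHD13 it was at 21.1 to 25.0 against 27.7 to 28.9.

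All 10 genes of receptor cleavage were tested. Ncstn, the nicastrin subunit of γ-secretase, rose over control in the libraries under the NHD13/MSI2 label. It was at 168, 166 and 151 CPM in control, 176 and 199 CPM in NHD13 and 261, 307, 320 and 463 CPM in replicates 1 to 4 labelled NHD13/MSI2, with no overlap between the last group and the others. The log2 fold change over control was 1.07 (standard error 0.20, edgeR adjusted p = 0.00513), and the call was lost without any 1 of the control libraries or replicate 2 or 3 labelled NHD13/MSI2 (edgeR adjusted p up to 0.0303).

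Aph1c, a mouse paralog of the APH1 subunit of γ-secretase, fell in the same comparison. It was at 20.7, 16.6 and 18.7 CPM in control, 12.3 and 9.48 in NHD13 and 4.65, 4.29, 3.76 and 5.52 in replicates 1 to 4 labelled NHD13/MSI2. The groups followed each other without overlap. This gave a log2 fold change of −2.04 over control (standard error 0.22, edgeR adjusted p = 0.000367) and −1.26 over NHD13 (standard error 0.25, edgeR adjusted p = 0.014). Aph1b is its near-identical copy, so reads may have been split between the pair and the value of either is uncertain. Adam10, the protease of the first cut and the most abundant gene of this role by CPM, was at 440 ± 4.02 CPM in control, 318 ± 8.58 in NHD13 and 441 ± 113 in the libraries under the NHD13/MSI2 label (SD, n = 3, 2 and 4), and was not called.

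None of the 12 genes of the nuclear complex and its cofactors were called in any comparison by either edgeR or DESeq2, and 2 were under an unadjusted p of 0.05, higher in libraries with the NHD13/MSI2 label over control, where 32.8% of all genes were under that p. Rbpj, the DNA-binding protein that all Notch receptors share, was at 91.1 ± 5.50 CPM in control, 101 ± 1.94 in NHD13 and 111 ± 12.6 in the libraries under the NHD13/MSI2 label (SD, n = 3, 2 and 4). Its log2 fold change was 0.13 over NHD13 (95% interval −0.20 to 0.46, edgeR adjusted p = 0.672) and 0.28 over control (−0.012 to 0.57, edgeR adjusted p = 0.169). Snw1, a cofactor of RBPJ and the most abundant by CPM, was at 350 ± 6.22, 374 ± 9.29 and 514 ± 169 CPM in the same order.

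Among 15 genes of receptor turnover and inhibition, Nedd4, a ubiquitin ligase reported to act on Notch, was the only one called in 2 comparisons, and it fell in both. It was at 1467, 1225 and 1252 CPM in control, 982 and 358 CPM in NHD13 and 72.1, 81.3, 83.1 and 18.6 CPM in replicates 1 to 4 labelled NHD13/MSI2. No library of the last group reached the lowest of the others. Over control this was a log2 fold change of −4.36 (standard error 0.53, edgeR adjusted p = 0.000589), and over NHD13 one of −3.39 (standard error 0.54, edgeR adjusted p = 0.00606). The second call was lost without NHD13 replicate 1, where the log2 fold change was −2.47 (edgeR adjusted p = 0.0534), and without any 1 of the control libraries or replicates 1 to 3 labelled NHD13/MSI2.

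Dtx3l, a Deltex-family ubiquitin ligase, rose over control in the libraries under the NHD13/MSI2 label, from 202 ± 25.0 CPM (SD, n = 3) to 449 ± 17.9 (SD, n = 4), with NHD13 between them at 281 and 388 CPM. The log2 fold change was 1.15 (standard error 0.16, edgeR adjusted p = 0.00116, up to 0.01002 without control replicate 3, where the call was lost). Dtx1, the member of that family among the 8 genes, had at most 3 counts. Neurl1a, a ubiquitin ligase for Notch ligands, reached 4.00 and 3.75 CPM in NHD13 replicates 1 and 2 and at most 0.23 CPM in the other 7 libraries. It fell by 4.98 on the log2 scale in libraries with the NHD13/MSI2 label over NHD13 (standard error 0.87, edgeR adjusted p = 0.00879), a call that held only without replicate 4 when libraries were left out in turn. Numb, the inhibitor whose mRNA Musashi proteins bind, was at 39.1 ± 10.1 CPM in control, 41.4 ± 0.171 in NHD13 and 44.6 ± 5.46 in the libraries under the NHD13/MSI2 label (SD, n = 3, 2 and 4). Its log2 fold change over NHD13 was 0.11 (95% interval −0.38 to 0.59, edgeR adjusted p = 0.833), a measure of RNA that leaves translation unmeasured.

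**Figure D3:**
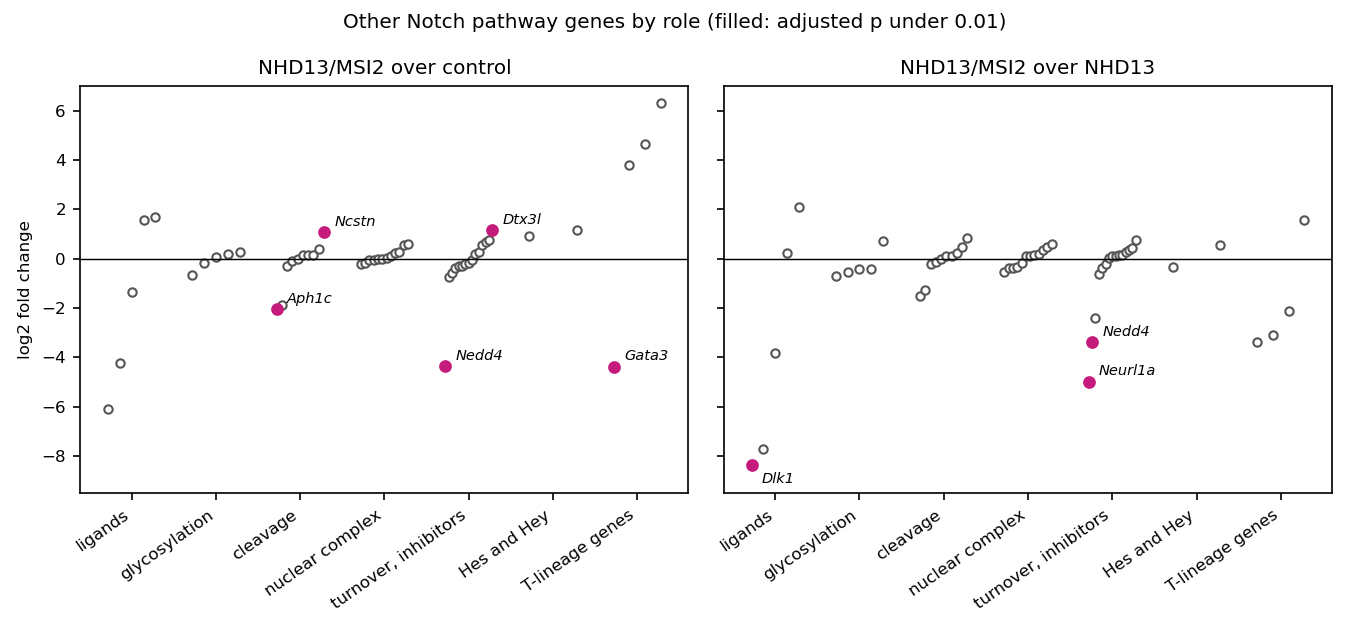
Fitted log2 fold changes of the 53 tested pathway genes in 7 roles, in libraries with the NHD13/MSI2 label over control (left) and over NHD13 (right). Each point is a gene, ordered by value within its role, and filled points with names passed an adjusted p of 0.01. Genes of glycosylation lie between −0.71 and 0.71 and those of the nuclear complex between −0.53 and 0.61 in both panels, while ligands run from −8.34 to 2.10, turnover genes from −4.98 to 1.15 and T-lineage genes from −4.38 to 6.33, with Nedd4 filled in both.

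Of 7 other Hes and Hey genes, Hes5 and Hes6 were tested and 0 were called by edgeR or DESeq2, while Hes2, Hes3, Hes7, Hey2 and Heyl had at most 6 counts in any library. Hes5, a Notch target best known from the nervous system, had 7, 3 and 13 counts in control, 11 and 27 in NHD13 and 16, 28, 13 and 1 in replicates 1 to 4 labelled NHD13/MSI2. The groups overlapped, and its log2 fold change over control in the last was 1.17 (standard error 0.92, edgeR adjusted p = 0.424). Hes5 is named after its values were seen. Hes6, which opposes Hes1, was at 17.8 ± 4.92 CPM in control, 23.1 ± 6.42 in NHD13 and 33.6 ± 12.3 in the libraries under the NHD13/MSI2 label (SD, n = 3, 2 and 4), and its log2 fold change over control in the last was 0.92 (standard error 0.36, edgeR adjusted p = 0.104).

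Of 5 T-lineage genes downstream of Notch, 4 were tested, and edgeR called Gata3, lower in libraries with the NHD13/MSI2 label over control. DESeq2 called Gata3 lower and Il2ra and Tcf7 higher in that comparison, Gata3 lower over NHD13, and Bcl11b and Tcf7 higher in NHD13 over control. Gata3 was at 52.8, 33.7 and 35.4 CPM in control, 30.2 and 3.11 CPM in NHD13 and 1.55, 2.94, 2.40 and 0.84 CPM in replicates 1 to 4 labelled NHD13/MSI2. NHD13 replicate 2 stood close to the last group and replicate 1 close to control. The log2 fold change of Gata3 over control was −4.38 (standard error 0.69, edgeR adjusted p = 0.00229, and 0.0103 without control replicate 1, where the call was lost). Tcf7, a transcription factor of early T cells, was at 139 CPM in NHD13 replicate 1 and 1.33 CPM in replicate 2, at 7.55 to 32.8 CPM in the libraries under the NHD13/MSI2 label and at most at 1.10 CPM in control. Bcl11b, named after its values were seen, showed the same split, at 42.3 CPM in NHD13 replicate 1, 0.05 in replicate 2 and at most 3.57 in all other libraries. NHD13 replicate 1 was thus high for Tcf7, Bcl11b and Hes1 and was the lower of the NHD13 pair for Notch1. Tcf7 over control was not called in the libraries under the NHD13/MSI2 label (log2 fold change 4.66, standard error 1.42, edgeR adjusted p = 0.0456) or in NHD13 (6.79, standard error 1.59, edgeR adjusted p = 0.0606). Il2ra, the CD25 chain of the interleukin-2 receptor, also named after its values were seen, had 3, 0 and 0 counts in control, 56 and 0 in NHD13 and 27, 45, 205 and 38 in replicates 1 to 4 labelled NHD13/MSI2. The last group lay above every control library and on both sides of NHD13 replicate 1. The mean of that group, raised most by its replicate 3, was at least 30.0-fold higher than control against the floor of 3 counts per library (edgeR adjusted p = 0.0273, not called).

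**Figure D4:**
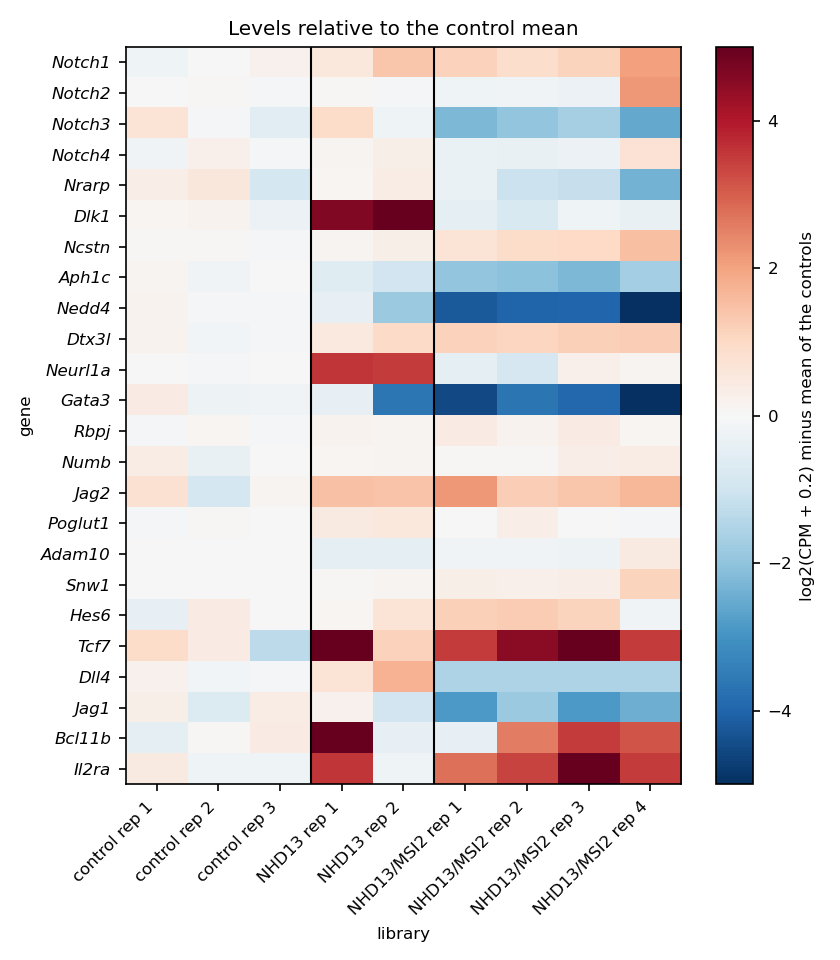
Levels in each of the 9 libraries as log2(CPM + 0.2) minus the mean of the controls, for the 5 tested Notch genes and the pathway genes described, with colours ended at 5 on either side. Vertical lines divide the groups. Dlk1 and Neurl1a are high in both NHD13 libraries, Tcf7 and Bcl11b differ within the NHD13 pair, and Notch3, Nedd4, Gata3, Dll4 and Jag1 are low in all 4 libraries with the NHD13/MSI2 label.

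Replicate 4 labelled NHD13/MSI2 differed from replicates 1 to 3 by transcript length. Its median log2 ratio to their mean was −0.40 for genes under 2 kb of exon (1754 genes), −0.17 from 2 to 4 kb (3970 genes), 0 from 4 to 8 kb (4815 genes) and 0.20 at 8 kb or more (2226 genes). Notch2 had a log2 ratio of 2.39, above 98.5% of the genes of at least 8 kb, so that it stood out among long genes as well. Notch1, with a ratio of 0.99, was at percentile 85.0 of those genes, and Notch4 at percentile 86.4, with 1.04. Notch3 (−0.64) and Nrarp (−1.58) were lower in replicate 4, from counts of 0 there. Maml2, a Mastermind cofactor named after its values were seen, had a ratio of 2.51, close to that of Notch2. The part of length and RNA quality in the level of Notch2 was not tested.

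**Figure D5:**
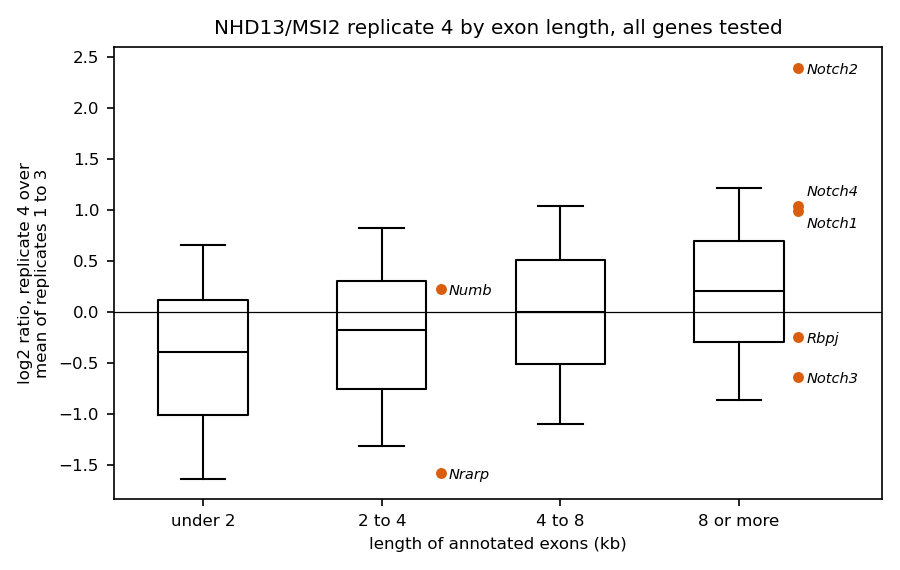
Log2 ratio of replicate 4 to the mean of replicates 1 to 3 labelled NHD13/MSI2, by length of annotated exons, over the tested genes found in the annotation. Boxes span the quartiles with the median as a line, whiskers run from the 10th to the 90th percentile, and orange points are the named genes. Medians climb from −0.40 to 0.20 with length, and Notch2 at 2.39 is above the upper whisker of its class at 1.22.

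Markers of other cells that use Notch were measured in the same libraries. T cell markers (7 genes) summed to 37.7 to 50.3 CPM in control, 201 to 203 in NHD13 and 50.6 to 86.5 in the libraries under the NHD13/MSI2 label, nearly all of it Lck, while Cd3d, Cd3e and Cd3g were at most at 0.70 CPM in any library. B cell markers (7 genes) summed to 46.5 to 58.7, 83.5 to 129 and 262 to 448 CPM in the same order, carried by Cd79a and Cd79b, which rose over control with Pax5 under the NHD13/MSI2 label, while Ebf1 was at 1.52 CPM in control and 0.257 there.

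A list of 4 genes drawn up for marginal zone B cells, which depend on NOTCH2, summed to 38.3 to 43.1, 5.43 to 14.4 and 23.2 to 36.6 CPM. Its members moved apart. Fcer2a (CD23) is known as a marker of follicular B cells and is low on marginal zone B cells, so the sum does not measure the latter. S1pr3 fell from a mean of 38.4 CPM in control to 0.508 in the libraries under the NHD13/MSI2 label (edgeR adjusted p = 0.00128), while Fcer2a rose from 0.248 to 28.9 (edgeR adjusted p = 0.00057). Cr2 went from 2.21 to 0.779 CPM and Cd22 from 0.436 to 1.70, and neither was called. Endothelial markers (6 genes) summed to 235 to 371, 395 to 462 and 444 to 566 CPM, a sum set by Pecam1, which rose from 160 to 495 CPM over control. The other endothelial genes went against that sum. Emcn (24.2 to 0.150 CPM), Tek (41.7 to 0.424) and Esam (75.0 to 6.10) fell under the NHD13/MSI2 label over control and over NHD13, Kdr went from 1.14 to 0.0583 without a call (edgeR adjusted p = 0.0188), and Cdh5 was at most at 0.44 CPM in any library.

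Stroma and mural markers (6 genes), which include cells known for NOTCH3, summed to 47.7 to 87.6, 43.7 to 66.4 and 2.14 to 34.5 CPM, with Rgs5 at 0 in all libraries. The lower sum under the NHD13/MSI2 label was that of Pdgfrb, at 63.1 CPM in control, 45.6 in NHD13 and 4.37 in that group, the only gene of the list called. Col1a2 was at 3.03 CPM in control and 0.553 there, while Cxcl12 (2.69 against 8.20), Col1a1 (0.197 against 0.913) and Acta2 (0.209 against 0.315) had higher means there than in control. Pdgfrb, Emcn, Tek and Esam were thus low in the libraries in which Notch3 and Jag1 were low. Pecam1, Cxcl12, Col1a1 and Acta2 of the same lists had higher means there than in control, but only Pecam1 of these was called, and Acta2 was not tested. In replicates 1 to 4 labelled NHD13/MSI2, Cxcl12 had 99, 90, 513 and 0 counts, Col1a1 2, 35, 37 and 2, and Acta2 2, 2, 9 and 10. Slamf1, from the list of the LSK gate and its subsets, was low under that label as Notch3 and Jag1 were. The part of other cells, or of subsets of LSKs, in these levels was not tested.

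Neutrophil and monocyte markers (6 genes) summed to 1643 to 2604 CPM in control, 3277 to 4273 in NHD13 and 8849 to 14857 in the libraries under the NHD13/MSI2 label. Most of that was Mpo, which rose over control from 1549 to 10791 CPM, as did Csf1r and Itgam, while S100a8 (233 against 71.3), Ltf (231 against 62.6) and Elane (143 against 109) had lower means there than in control and were not called. Megakaryocyte markers (5 genes) summed to 80.4 to 222, 86.6 to 702 and 15.2 to 45.6 CPM, erythroid markers (5 genes, Hba-a1 at 0 in all) to 10.04 to 14.6, 2.03 to 10.6 and 0.50 to 3.53, and dendritic cell markers (5 genes) to 21.6 to 37.0, 22.4 to 31.1 and 27.3 to 67.8. The 6 genes of the LSK gate and its subsets summed to 4271 to 4711, 2507 to 2736 and 2282 to 3003 CPM, with Kit and Ly6a (the gene of Sca1) present in every library. Slamf1 was between 0.05 and 1.86 CPM in the libraries under the NHD13/MSI2 label against 12.6 to 51.8 in the others. Cd34 (1599 to 763 CPM), Flt3 (614 to 152) and Slamf1 were called lower there over control, and Cd34 also in NHD13 over control. Not called there over control were Kit (1938 to 1141), Ly6a (85.8 to 260) and Cd48 (192 to 226).

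The sums of the T cell, B cell, marginal zone and neutrophil and monocyte lists did not overlap between any of the 3 groups. How often sums of other genes separate these groups was not measured. Each of these sums was carried by few genes and does not stand for a cell type. That of the marginal zone list was mostly S1pr3 in control and mostly Fcer2a under the NHD13/MSI2 label. The sums of megakaryocyte and of stroma markers were lower under the NHD13/MSI2 label than in the other groups, whose ranges overlapped. Dendritic cell sums overlapped in all 3. The part of other cells in the levels of Notch1 and Notch3 was not tested.

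The genes whose pattern was most like that of Notch2, the receptor with the highest CPM, were Gigyf1, Mfsd4, Acot2, Rbm15 and Ccdc163, with Pearson correlations of log2 CPM of 0.993 to 0.995 over the 9 libraries. The likeness rested largely on replicate 4 labelled NHD13/MSI2, since without it the correlations were 0.669 to 0.934. For Nrarp, the target with the highest CPM, the genes were Matn2, Cwf19l1, Pspc1, Sec22a and Havcr2, at 0.939 to 0.966 over the 9 libraries and 0.828 to 0.910 without that replicate. The libraries share depth and group, and the correlations describe pattern only.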

How the data were processed

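RNA-seq counts of 9 LSK libraries were used as the authors deposited them, as raw counts per gene symbol with no normalization. The submitters' processing notes list mm9, STAR, HTSeq and DESeq, with versions and counting strand not given in the sources used here. Of 24073 rows, 13 were left out (0.0253% to 0.0323% of the counts of a library). These were the 11 rows whose names date conversion had turned into n-Mar and the 2 rows after them. The 11942 names after the n-Mar names were moved down by 2 rows. After the move, Uty and Eif2s3y, both Y-linked, correlated at 0.989 over the libraries, against 0.251 and 0.0322 at 3 and 4 rows. Library sizes were scaled by TMM, low genes removed by filterByExpr, and all 9 libraries fitted together in edgeR 4.0.16 (R 4.3.3), the 13355 tested genes sharing 1 adjustment. The script was tested on simulated data. DESeq2 1.42.0, RLE scaling, no filter, an adjusted p under 0.05, only the 2 groups compared, a replicate block, names as deposited and leaving out each library were the alternatives.

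The genes and lists were chosen with earlier results of these data known. All 8 Notch genes were named, as was every pathway gene called in any comparison, plus Rbpj, Numb, the gene with the highest CPM of each role, and the 5 genes most like Notch2 and Nrarp among those with a mean of at least 50 counts. Folds and CPM in the text were computed from the deposited counts, with 19242153 to 23013493 counts per library setting their precision. Floors of 3 counts cover counting error only.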

Additional observations from a re-analysis of the deposited data

Results flagged for a closer look

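In the group labelled NHD13/MSI2, which has 4 libraries, the gap between the most extreme library and its nearest neighbour was divided by the range of the group and set against Dixon's 95% critical value for 4 values. Chance passes about 1 group in 20 by construction, and in these libraries 2105 of 13355 genes (15.8%) passed, 72.3% of them through replicate 4. The ratio was checked for 23 genes, the Notch genes and the pathway genes named by rule, and 9 passed, 6 of them through replicate 4. Genes named after their values were seen, such as Maml2 and Il2ra, were not checked.

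Notch2 had a ratio of 0.983 and Notch4 of 0.968, both with replicate 4 on top. Hes1 and Dtx1 each had a ratio of 1, which rests on 1 count of Hes1 and 3 counts of Dtx1 in replicate 2. Among pathway genes, Nedd4 (0.829) and Hes6 (0.843) were lowest and Adam10 (0.913) and Snw1 (0.922) highest in replicate 4, while Poglut1 (0.837) was highest in replicate 2. Whether these libraries differ in RNA quality or in cells was not tested.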

How the results depend on the processing

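Under the alternatives, 208 fold changes of the tested Notch genes kept their direction and their side of the threshold, 7 became calls, all of Notch1 or Notch3, and 24 turned to the other side of 0. RLE scaling and no filter on low counts moved no count of calls by over 1.5 times, and 0 of 5 Notch genes were called under either in any comparison.

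The counts below are for the NHD13/MSI2 label over NHD13, that label over control, and NHD13 over control, in this order. DESeq2 called 1, 2 and 0 Notch genes, 8, 11 and 5 pathway genes and 1286, 2589 and 594 of all genes, where edgeR called 423, 1474 and 138. An adjusted p under 0.05 in edgeR gave 1, 2 and 0 Notch genes, 7, 11 and 2 pathway genes and 1177, 2745 and 386 of all genes. With only the 2 groups compared in the fit, 1 pathway gene and 30 of all genes were called in the first comparison and 83 genes in the third, with fewer libraries behind the spread. Notch2 without TMM factors was at 245 CPM in control and 239 CPM in NHD13, against 228 and 225.

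Same-numbered libraries were paired by their number alone. The correlations of their deviations from the group means ran from −0.072 to 0.194, and whether any of them shared a batch was not tested. With a replicate block, 203 genes were called in the first comparison and 0 pathway genes in the third, where Dlk1 was lost (edgeR adjusted p = 0.0132), as was Neurl1a in the first (0.0290), and the log2 fold changes of Notch2 were −0.18 and −0.23 in the first and second and that of Nrarp −0.10 in the third. The block changed no call of a Notch gene.

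With names as deposited, the row called Notch3 gave 0.36 and 1.37 in the first and second comparison, Notch4 0.84, 0.82 and −0.019 in the 3, Ncstn −5.58, −6.55 and −0.97, and Nedd4 1.03, 1.15 and 0.11. In the third, Notch1 gave −0.12, Notch2 2.01, Nrarp −0.29 and Neurl1a −0.56. These rows hold counts of other genes by construction.

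Leaving out each of the 9 libraries in turn gave 128 to 646, 647 to 2066 and 38 to 251 calls over all genes, 1 to 5, 3 to 8 and 0 to 1 over the pathway genes, and 0, 0 to 1 and 0 over the Notch genes. The log2 fold change of Notch2 ran from −0.19 to 1.08, from −0.22 to 1.06 and from −0.076 to 0.028. That of Notch3 ran from −0.35 to 0.95 and that of Nrarp from −0.24 to 0.49 in the third, and those of Notch4 from −0.51 to 0.19 and Neurl1a from −0.97 to 0.036 in the second. The lone NHD13 library in 2 of these fits was assumed to vary like the other groups. Depth limits Notch3, Notch4 and Nrarp to 45 counts or fewer per library and leaves Hes1, Hey1 and Dtx1 untested.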
